A study of Mus musculus with 16 samples.

Results

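Late transient regions are stretches of chromatin that were open at days 8 to 12 of chemical reprogramming of mouse fibroblasts and in no other stage examined. They were chosen by peak coverage: peaks of 8 lists were merged where they overlapped by at least 1 bp, and a region was kept if it overlapped a peak of at least 2 of the D8, D10 and D12 lists and no peak of the D0, D2, D4, D6 or iPSC list. The rule took 7295 of 165616 regions, or 4.4%. That share was fixed by the rule and is no result. A region with no peak in a list is one where the caller wrote none, which is not the same as closed chromatin.

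The study followed open chromatin with ATAC-seq, where a transposase (Tn5) cuts and tags DNA that nucleosomes leave accessible. Mouse embryonic fibroblasts (MEF, D0) from E13.5 embryos of the strain 129XOG2 were put into reprogramming medium and collected at D2, D4, D6, D8, D10 and D12, and induced pluripotent stem cells (iPSC) were sampled as well. The OG2 transgene expresses green fluorescent protein from Pou5f1 sequences, and all 8 groups share that background. The iPSC were kept on feeder cells in a medium with LIF, CHIR99021 (a GSK3 inhibitor) and PD0325901 (a MEK inhibitor), and what the reprogramming medium held is not stated in the labels. Each stage had 2 samples but 1 peak list, so there was no replicate spread, and no test between stages could be made. Intervals below are exact Clopper-Pearson 95% intervals on shares, which cover counting error only.

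Fibroblasts that are turned into pluripotent cells by small molecules pass through intermediate states, in which epithelial genes and genes of the extraembryonic endoderm can become active before the pluripotency network does. The extraembryonic endoderm lines the early embryo and forms the yolk sac. Its regulators include GATA4, GATA6, SOX17, FOXA2 and HNF4A, and its cells lay down a basement membrane of laminin and collagen IV. GATA factors bind short DNA motifs with the core letters AGATAA, and much of their binding is at enhancers away from start sites.

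A few late transient regions lay over start sites of genes of endoderm and epithelium. To make visible what the comparison of motifs below counts, 5 promoters whose start site lies in a late transient region are shown. Of these, Adh1 and Ppargc1a are in none of the gene lists used below. They are a choice, 3 with the GATA letters and 2 without, and do not stand for the 205 start sites of that comparison. Each run is the 250 bases before a start site, 5′ to 3′ on the gene's strand, from RefSeq (GRCm38.p6), with the GATA letters AGATAA in capitals. Hnf4a (chr2:163506607-163506856, plus strand) encodes a nuclear receptor of endoderm and liver. Krt8 (chr15:102004343-102004592, minus strand) encodes a keratin of simple epithelia. Adh1 (chr3:138277335-138277584, plus strand), an alcohol dehydrogenase gene, was chosen after its values were seen, as was Hnf4a. Dsp (chr13:38151044-38151293, plus strand) encodes desmoplakin of the desmosome, and Ppargc1a (chr5:51567726-51567975, minus strand) a coactivator of mitochondrial genes, and neither has a match.
Hnf4a: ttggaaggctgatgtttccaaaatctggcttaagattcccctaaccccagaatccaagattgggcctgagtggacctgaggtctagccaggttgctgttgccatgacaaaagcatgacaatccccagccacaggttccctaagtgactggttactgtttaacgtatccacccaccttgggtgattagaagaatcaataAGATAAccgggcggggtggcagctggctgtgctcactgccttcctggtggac
Krt8: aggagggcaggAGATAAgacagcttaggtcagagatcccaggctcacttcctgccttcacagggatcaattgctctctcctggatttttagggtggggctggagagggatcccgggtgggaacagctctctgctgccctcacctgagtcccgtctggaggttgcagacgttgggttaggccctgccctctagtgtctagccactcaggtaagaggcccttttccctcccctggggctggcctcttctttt
Adh1: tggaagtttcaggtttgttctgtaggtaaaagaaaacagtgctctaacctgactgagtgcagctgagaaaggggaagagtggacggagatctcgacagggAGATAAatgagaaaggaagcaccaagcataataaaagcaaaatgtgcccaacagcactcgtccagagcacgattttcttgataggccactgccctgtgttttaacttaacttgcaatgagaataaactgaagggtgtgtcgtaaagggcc
Dsp: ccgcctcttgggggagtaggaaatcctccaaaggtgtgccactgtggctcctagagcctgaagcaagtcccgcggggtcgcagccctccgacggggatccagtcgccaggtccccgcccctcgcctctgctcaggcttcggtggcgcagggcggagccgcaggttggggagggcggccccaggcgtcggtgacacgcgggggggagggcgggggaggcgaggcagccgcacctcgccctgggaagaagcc
Ppargc1a: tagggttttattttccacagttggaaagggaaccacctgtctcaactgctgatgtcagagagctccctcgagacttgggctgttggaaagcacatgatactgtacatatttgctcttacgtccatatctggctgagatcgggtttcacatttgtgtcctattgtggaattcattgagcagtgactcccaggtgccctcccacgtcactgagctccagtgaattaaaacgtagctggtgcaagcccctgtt
The match lies 52 bases before the start site in Hnf4a, 239 in Krt8 and 150 in Adh1, and in each of these genes it falls inside the late transient region. At Hnf4a that region (chr2:163506337-163507193) had a fold of 8.66 at D8, 12.8 at D10 and 4.98 at D12. At Adh1 the folds were 5.37, 5.13 and 3.92. Krt8 had 5.71 at D8, 4.47 at D10 and no peak at D12. Dsp had 4.88, 5.32 and none, and Ppargc1a 8.25, 6.67 and none. The fold is the authors' enrichment at the summit of a peak over local background, and it ranks peaks within a list only.

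Most late transient regions were covered at both D8 and D10. Of the 7295, 3836 (52.6%) were covered at D8 and D10, 1960 (26.9%) in all 3 lists, 1229 (16.8%) at D10 and D12, and 270 (3.70%) at D8 and D12. The D12 list was the shallowest of all: its background pileup, the lowest number of fragments expected at a peak by chance, was 0.248, against 0.682 at D8 and 0.968 at D10. In the lists that do not cover the regions it was 1.96 (D0), 3.08 (D2), 1.23 (D4), 2.12 (D6) and 1.90 (iPSC). All 5 lists without a peak were therefore deeper than the 3 lists with one. With every deeper list thinned to the background pileup of D8, 7023 of the 7295 regions (96.3%) overlapped a late transient region, and the total was 8586. Thinning only removes peaks, and the D8 and D12 lists were left as they were. A late transient region could thus be lost only through D10, which went from 43542 to 40249 peaks. The 96.3% was therefore nearly fixed in advance and is no test of depth.

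**Figure D1:**
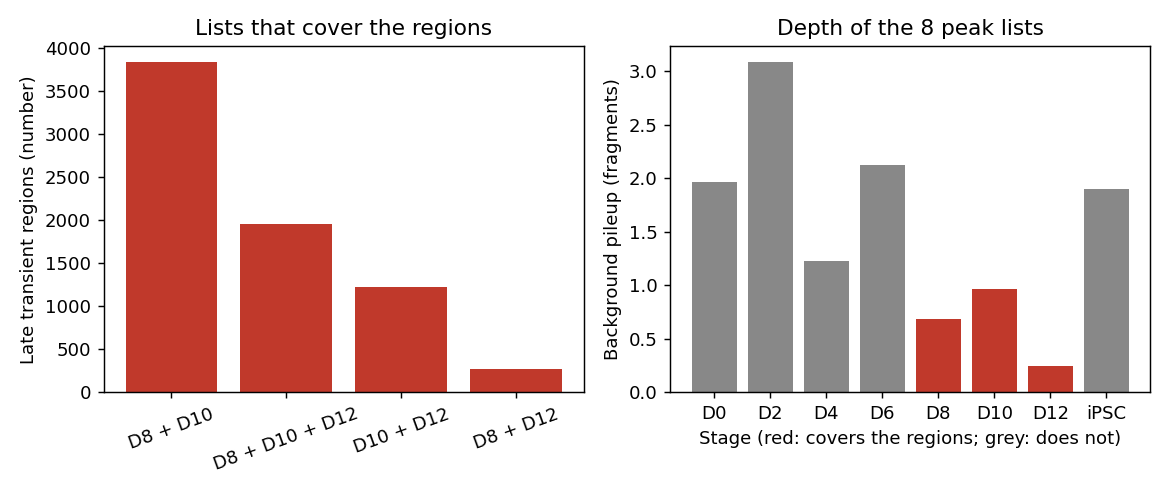
Left, number of late transient regions (y axis) by the combination of lists that covers them (x axis), from 3836 for D8 and D10 to 270 for D8 and D12. Right, background pileup in fragments (y axis) of the 8 peak lists (x axis), with the 3 lists that cover the regions in red, all below the 5 lists in grey that do not.

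The rule had neighbours on both sides. A further 26284 regions were covered in exactly 1 of the 3 late lists and in none of the others, of which 6140 were at D8, 8225 at D10 and 11919 at D12. Of the 30036 regions covered in 2 or more late lists, 11563 were covered in all 5 other lists. A single other list kept out 216 regions (D0), 606 (D2), 144 (D4), 223 (D6) or 2197 (iPSC). The last set, regions of days 8 to 12 kept in iPSC, is used below for comparison. The other comparison set holds 16996 early transient regions, covered in at least 2 of D2, D4 and D6 and in no other list. A peak of a list that lacks the region lay within 500 bp of 538 late transient regions (7.37%) and within 5000 bp of 4205 (57.6%), at a median distance of 3967 bp.

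The regions were of ordinary height for their stages. At D8 their median fold was 5.94, beside 6.00 for all peaks of that list. At D10 it was 6.50 beside 6.10, and at D12 6.12 beside 5.27. These values belong to the lists that chose the regions, so they are a description. Peaks at regions covered in all 8 lists were higher in each of these stages, with medians of 9.71, 9.22 and 7.54. Regions covered in all 3 late lists had medians of 6.58, 7.75 and 6.52, and those in 2 lists 5.63, 6.08 and 5.61. Across regions covered in both lists, the rank correlation of fold was 0.589 between D8 and D10 (n = 5796), 0.383 between D10 and D12 (n = 3189) and 0.358 between D8 and D12 (n = 2230). These correlations are across regions, which come from the same 3 peak lists and are not independent replicates. A median late transient region was 483 bp wide, narrower than an early transient region (754 bp) or one kept in iPSC (786 bp). These are widths of merged regions, and the lists that made them differ. Median peak widths were 377, 434 and 264 bp at D8, D10 and D12, but 705, 479 and 495 bp at D2, D4 and D6 and 609 bp in iPSC. Within a list, peaks of late transient regions and of those kept in iPSC were closer in median width. They were 331 and 366 bp at D8, 404 and 448 bp at D10, and 271 and 287 bp at D12.

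Few late transient regions lay at start sites. Of the 7295, 260 (3.56%, 3.15 to 4.02) were within 1 kb of a start site or, for genes without a listed start site, of a gene end. The share was 10.1% of all regions, 8.88% (7.72 to 10.1) of those kept in iPSC and 2.14% (1.93 to 2.37) of early transient regions. The late transient regions were therefore between both comparison sets, with intervals that do not overlap. At the background pileup of D8 the share rose to 5.59%, beside 11.8% of all regions, and the 1563 regions that thinning added had a share of 14.9%. Inside a gene span lay 3644 of the 7295 (48.8 to 51.1%), beside 53.4% of all regions, 47.7% of early transient regions and 51.9% of those kept in iPSC. Their median distance to a start site or gene end was 30.5 kb, against 34.0 kb for all regions, 58.9 kb for early transient regions and 23.5 kb for those kept in iPSC. By that median they were nearer to a start site or gene end than all regions, but their lower quartile was farther, at 11.3 against 9.62 kb. Over 100 kb from any gene lay 11.4% of them, beside 15.1% of all.

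The extraembryonic endoderm list stood highest among the 17 gene lists. Each region was assigned to the nearest protein-coding gene within 100 kb, and 6463 late transient regions went to 4145 of 18185 genes with any region (22.8%), with a median of 0 and a mean of 0.355 per gene. Of the 25 extraembryonic endoderm genes, 22 had at least 1, with a median of 2. These genes also had more regions of any class per gene, 423 for 25 genes against 140623 for all 18185. Counts per gene are therefore not on an equal footing, and the share of regions is given next. Late transient regions were 70 of the 423 regions assigned to these genes, or 16.5% (13.1 to 20.4), beside 4.60% of all assigned regions. Early transient regions were 8.27% of the regions of this list, beside 9.50% of all, and those kept in iPSC 2.36%, beside 1.43%. At the background pileup of D8 the late transient share of the list was 22.5% beside 6.86%, and without the D12 list it was 14.5% beside 3.92%. The lists were chosen with earlier results of these data known, so the rank is a description and no independent support. Regions of 1 gene can lie close together, as at Foxa2 below, and the interval does not cover that. Whether expression of these genes changed was not measured here.

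**Figure D2:**
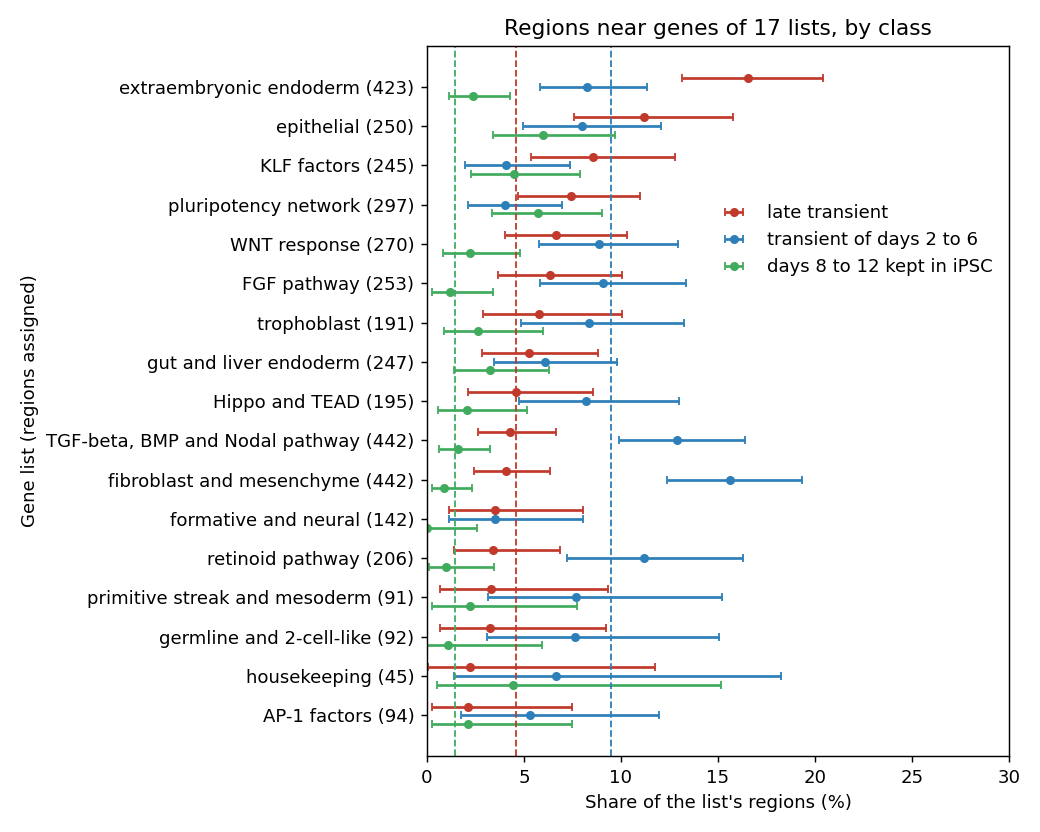
Share of the regions assigned to each of 17 gene lists (x axis, %) that were late transient (red), early transient (blue) or of days 8 to 12 and kept in iPSC (green), with the number of regions in parentheses (y axis). Bars are exact 95% intervals and dashed lines the shares of all assigned regions, and the red point of the extraembryonic endoderm list, 16.5%, lies right of the red line at 4.60%.

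Foxa2, which encodes a pioneer factor of endoderm, had 9 late transient regions among the 33 assigned to it. Most genes with as many are long, such as Rad51b (13 of 110, gene span 551 kb) and Macrod2 (12 of 133, 1998 kb). Foxa2 spans 4.09 kb, and Hes1, with 9 of 40, spans 2.44 kb. Of the 9 regions of Foxa2, 6 formed a run at chr2:147961731-148024497, in which only 9 regions of any class lay. The highest, chr2:148013428-148013899, 29.0 kb from the gene, had folds of 10.3 at D8, 14.5 at D10 and 8.76 at D12. A neighbour at chr2:148004742-148005582 had 8.21, 9.14 and 5.38. The other 7 had D10 folds of 3.58 to 8.97 or, in 1 case, no D10 peak.

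Foxq1, a forkhead gene expressed in endoderm and epithelia, had 6 late transient regions of 19. Of these, 4 were covered in all 3 lists, and the highest, chr13:31491710-31492412, had folds of 6.85 at D8, 10.9 at D10 and 7.90 at D12. Sox17, a regulator of endoderm, had 4 of 14. The region chr1:4537393-4538632, 40.0 kb from Sox17, had folds of 7.98, 11.1 and 11.5 and summit pileups of 41, 105 and 44 fragments. The region chr1:4473814-4474862, 16.1 kb from it, had 7.53, 9.56 and 6.26. In both, coverage held in all 3 lists.

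Hnf4a had 4 late transient regions among only 7 assigned, the one over its start site and 3 further ones with D10 folds of 4.70, 4.88 and 5.95. Gata4, which encodes a GATA factor of endoderm and heart, had 3 of 19, of which chr14:63231056-63232036 inside the gene had 9.75, 7.57 and 9.04 and chr14:63283416-63284110 had 9.32, 8.93 and 10.0. Gata6 had 1 of 17, with folds of 4.32 at D8 and 3.48 at D10 and no D12 peak, so the pair of GATA genes differed in number.

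Among the genes of basement membrane proteins in the list, Lamb1 had 5 late transient regions of 29, Lamc1 4 of 30, Col4a2 4 of 25, Lama1 3 of 19, Col4a1 2 of 29 and Sparc 1 of 13. They were picked out after their values were seen and are no list of their own. The highest region at D10 of Lamb1, which encodes a laminin beta chain, was chr12:31229330-31229748, with folds of 6.41, 8.49 and 5.95. Of the 25 genes of the list, Sox7, Amn and Cited1 had none, with 1, 3 and 3 regions of any class.

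**Figure D3:**
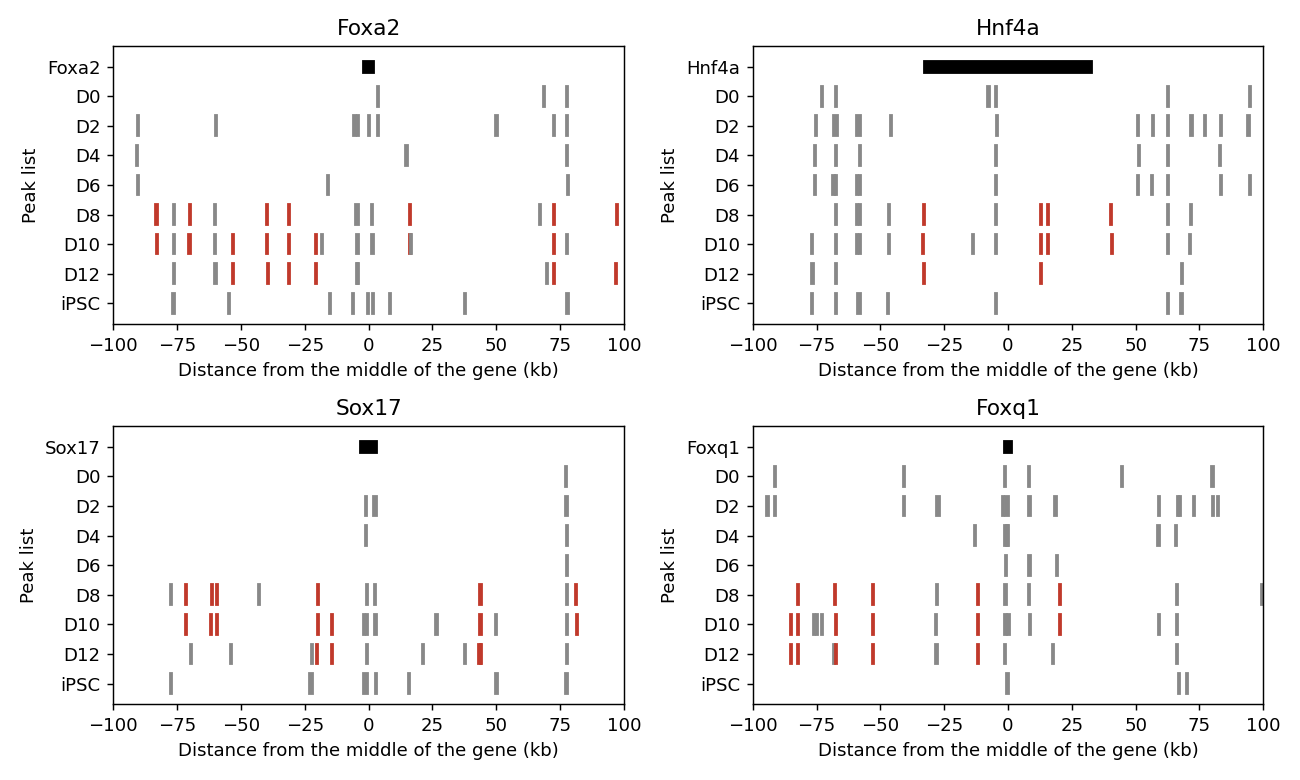
Peaks of the 8 lists (rows) within 100 kb of the middle of Foxa2, Hnf4a, Sox17 and Foxq1 (x axis, kb), with the gene in black, peaks in late transient regions in red and all other peaks in grey, drawn at least 0.8 kb wide. Red marks appear in the D8, D10 and D12 rows alone, by the rule, and at Hnf4a they lie at the start of the gene, inside it and on 1 side of it.

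Epithelial genes had the next highest share as reported. Late transient regions were 28 of the 250 regions of that list, or 11.2% (7.57 to 15.8), at 15 of 25 genes, and those kept in iPSC were 15 of the 250, or 6% beside 1.43% of all assigned regions. The late transient share of this list was 2.00% beside 1.23% when all 3 late lists had to cover a region, 3.36% beside 2.08% without the D8 list, 2.62% beside 1.48% without the D10 list and 20.9% beside 6.92% without the iPSC list. In the first 3 of these settings the pluripotency list was higher, at 2.36%, 4.50% and 3.18%. It was not alone in this. When all 3 late lists had to cover a region, the trophoblast, FGF, WNT, germline and KLF lists were also above the epithelial list. Ehf, an ETS factor gene of epithelia, had 7 of 18. Its highest region, chr2:103285407-103286084 inside the gene, had folds of 7.18 at D8 and 12.4 at D10 and no D12 peak. Dsp had 4 of 13, 3 of them covered at D8 and D10 and 1 at D10 and D12. Cdh1, the gene of E-cadherin, had 3 of 14. The region chr8:106588408-106589068, 14.3 kb from Cdh1, had folds of 11.0, 9.83 and 9.64. Epcam, an epithelial adhesion gene, had 1 of 16, with 9.41 at D8 and 9.90 at D10.

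Genes of the pluripotency network had 22 late transient regions of 297, or 7.41% (4.70 to 11.0), and those kept in iPSC were 5.72% (3.37 to 9.01) of them. Klf4 and Klf5, KLF factor genes that stand in several lists, had 4 of 24 and 4 of 29. Pou5f1 and Nanog had 0 of 7 each, and Sox2 had 1 of 23, with folds of 4.14 at D8 and 4.79 at D12. The KLF list had 21 of 245, or 8.57% (5.38 to 12.8). Both shares also moved with the lists used: without the iPSC list they were 18.4% and 15.5%, beside 6.92% of all, and with all 3 late lists 2.36% and 2.04%, beside 1.23%. Elf5, a trophoblast ETS gene next to Ehf, had 3 of 11, and the trophoblast list 5.76% (2.91 to 10.1).

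Signalling lists were near the share of all regions as reported, though WNT and FGF genes passed the epithelial list when all 3 late lists were required. WNT response genes had 6.67% (4.00 to 10.3), with 4 of 16 at Dkk1, a secreted WNT inhibitor. FGF pathway genes had 6.32% (3.66 to 10.1), with 3 of 37 at Fgfr2 and 3 of 30 at Spry2. Genes of the TGF-beta, BMP and Nodal pathway had 4.30% (2.61 to 6.63), with 4 of 45 at Bmper and 4 of 32 at Tgfbr2. Gut and liver endoderm genes that are not in the extraembryonic list had 5.26% (2.83 to 8.83), with Foxa1, Hhex and Sox9 at 0. Fibroblast and mesenchyme genes had 4.07% (2.43 to 6.36), while early transient regions made up 15.6% (12.4 to 19.3) of theirs. Within that list Runx1 had 8 of the 18 late transient regions, among 54 regions of any class assigned to it. AP-1 factors had 2 of 94 regions and housekeeping genes 1 of 45. Some genes stand in more than 1 list, so the lists are not independent.

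Late transient regions were somewhat grouped, as were the regions of both comparison sets. The nearest region of any class was itself late transient for 7.05% (6.47 to 7.66) of them, beside 4.48% of all regions, 4.00% of early transient ones and 5.87% (4.93 to 6.94) of those kept in iPSC, whose interval overlaps that of the late transient regions. In the same way, the nearest region was early transient for 14.2% of early transient regions, beside 10.2% of all, and kept in iPSC for 2.23% of those kept in iPSC, beside 1.32%. With gaps of up to 20 kb, 2029 of the regions (27.8%) lay in runs of 2 or more, and 41 runs held 4 or more. These counts depend on the number of regions in a class and were not compared with other classes. The longest run, of 7 regions at chr16:30046358-30113833, surrounded Hes1, a Notch target gene, in a span with 20 regions of any class. All 7 were covered at D8 and D10 and 1 at D12, with D10 folds from 2.12 to 8.54. A run of 6 lay at Isx, an intestinal homeobox gene (chr8:74804442-74853975), with 5 covered at D8, 6 at D10 and 5 at D12. Its span held 14 regions of any class. Among runs of 5, the densest was at Tmcc3, within 23.5 kb that held 7 regions of any class.

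Coverage at D12 followed height at D10. Of the regions covered at D8 and D10 and in none of D0 to D6 or iPSC, 1960 of 5796 (33.8%, 32.6 to 35.1) were covered at D12. For those that were in iPSC too it was 817 of 1806 (45.2%, 42.9 to 47.6), and for regions in all of D0 to D10 and iPSC 78.8% (78.0 to 79.6). By summit pileup at D10, late transient regions went from 14.4% at up to 13 fragments through 25.1% and 38.3% to 61.2% at over 28 fragments. The regions kept in iPSC went from 22.2% through 34.8% and 47.7% to 71.9%. In each of the 4 classes of pileup the late transient regions were lower, with intervals apart. The sets also differed in width, with medians of 483 bp for late transient regions and 786 bp for those kept in iPSC. Any D12 peak within a merged region counts as coverage, so a wider region has more room for one. The highest class of pileup has no upper limit, so height is not matched there. Whether width or height accounts for the difference was not tested. The D12 list had the lowest depth, and a peak missing there at low pileup cannot be told apart from too few fragments.

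**Figure D4:**
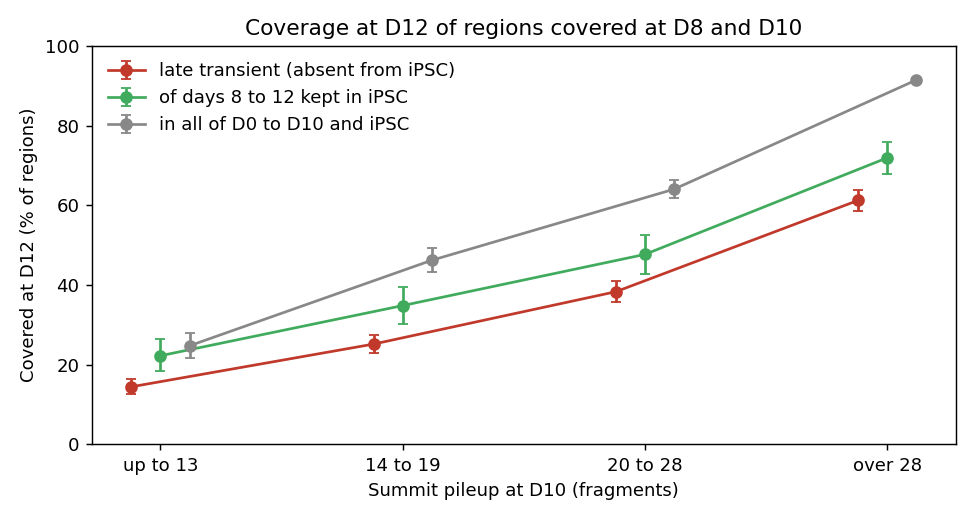
Share of regions covered at D8 and D10 that were covered at D12 (y axis, %), by summit pileup at D10 in fragments (x axis), for late transient regions (red), regions kept in iPSC (green) and regions in all of D0 to D10 and iPSC (grey). Bars are exact 95% intervals, and the red points go from 14.4% to 61.2%, below the green points throughout.

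GATA letters were frequent at the start sites that late transient regions cover as reported, but the share moved with the lists used. Over the chromosomes with start sites at hand, 186 of 7062 regions (2.63%) held 205 start sites, of 118 protein-coding and 72 other genes. In windows from 250 bases before to 50 after the start site, AGATAA on either strand was found in 55 of 205, or 26.8% (20.9 to 33.4), beside 11.2% of all 32851 promoters. It was found in 13.8% (9.28 to 19.4) of promoters in regions kept in iPSC, 9.09% (5.85 to 13.3) of those in early transient regions, 4.71% of those in all 8 lists and 15.6% of those in no region. With 1 start site per region it was 46 of 186 (24.7%, 18.7 to 31.6), and among protein-coding genes 25 of 123 (20.3%, 13.6 to 28.5) beside 9.65%. Base composition was similar, with a median GC content of 52.3% in these 205 promoters and 52.7% in all, and among promoters of 45 to 60% GC the shares were 26.3% and 11.2%. At the background pileup of D8 the share was 16.7% of 402 start sites, and with lists of equal length 13.0% of 491. With the better-scored 50% of each list it was lower still. The share thus fell by more than 1.5 times in each of these settings. With lists of equal length it was near the 11.2% of all promoters and below the 15.6% of those in no region. The cause was not tested.

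Of the other 21 motifs searched, several also differed from all promoters. The E-box CAGGTG, bound by ZEB and SNAI factors, was in 34.1% (27.7 to 41.1) beside 20.2%, and in 41.3% (34.4 to 48.6) of promoters in regions kept in iPSC. The ZIC letters CAGCAGG were in 19.5% (14.3 to 25.6) beside 10.5%, and in 18.4% of those kept in iPSC. The KLF letters GGGTGTG were in 14.6% (10.1 to 20.2) beside 7.95%, and the forkhead letters TGTTTAC in 7.32% (4.15 to 11.8) beside 3.65%. Below all promoters were the NFY letters CCAATC, with 8.78% (5.29 to 13.5) beside 16.1%, and the ETS letters CCGGAAG, with 3.90% (1.70 to 7.54) beside 8.86%. The octamer ATGCAAAT was in 1.46% (0.303 to 4.22) beside 1.74%. Of these motifs and GATA, only GATA had an interval wholly above that of the set kept in iPSC when all 205 start sites were counted. The GATA intervals overlapped with 1 start site per region and among protein-coding genes. In both cases only the late transient set was reduced, and the set kept in iPSC stayed at all its 196 start sites. A match is a description of letters in a window, and windows of 1 gene with several start sites overlap.

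**Figure D5:**
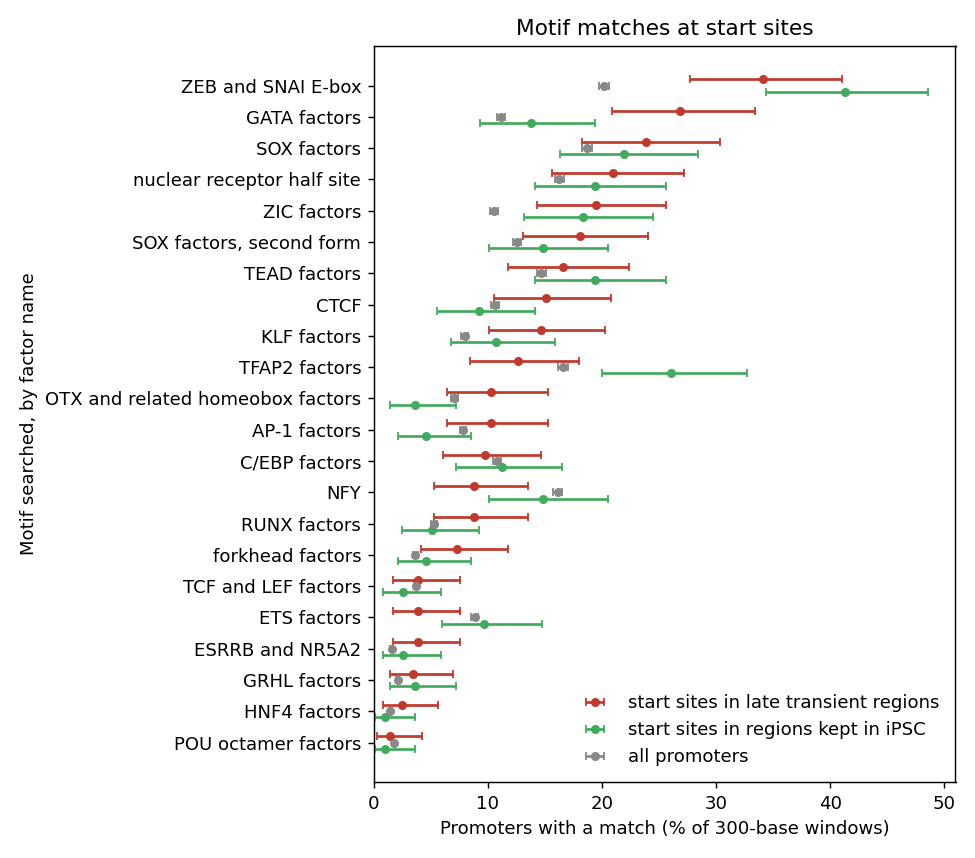
Share of 300-base promoter windows with a match on either strand (x axis, %) for 22 motifs (y axis, by factor), at start sites in late transient regions (red), in regions of days 8 to 12 kept in iPSC (green) and in all promoters (grey). Bars are exact 95% intervals, and for GATA factors the red point at 26.8% lies right of the grey point at 11.2% and the green at 13.8%.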

How the data were processed

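ATAC-seq was made of 16 samples in 8 stages with 2 samples each, and the authors deposited 1 peak list per stage. The submitters' processing notes name build mm10 and MACS2 2.1.2, deepTools 3.4.3, SAMtools, Bowtie2 2.2.5 and fastp 0.20.1. What each tool did, whether a Tn5 shift was applied and how both samples of a stage entered 1 list are not given in the sources used here. Score, fold enrichment (a ratio), −log10 p and summit position of each peak are the deposited values of the authors, used as they stand.

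Peaks on chromosomes 1 to 19, X and Y were merged, which left out 36 to 57 peaks of a list. The summit pileup and background of each peak were recovered from the deposited fold and −log10 p, with an error of at most 0.001 in 99.9% or more of them in every list, and the recovery and the merging were tested on simulated data. The D8, D10 and D12 lists held 40216, 43595 and 31915 peaks, and the other 5 between 41695 and 83022. No read depth was given, so precision was judged from the background pileup.

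Genes came from RefSeq (GRCm38.p6, the chromosomes of mm10), with 21887 protein-coding genes, of which 17492 had a start site in the promoter table, and 275 of 276 list genes were found. Of the miRNA hairpins, 339 lay within 1 kb of a region and 16 of those (4.72%) within 1 kb of a late transient region. The motifs searched on both strands were GATA factors (AGATAA), SOX factors (ACAAAG), SOX factors, second form (ACAATG), forkhead factors (TGTTTAC), AP-1 factors (TGANTCA), KLF factors (GGGTGTG), POU octamer factors (ATGCAAAT), ESRRB and NR5A2 (CAAGGTCA), TEAD factors (GGAATG), GRHL factors (AACCNGTT), TFAP2 factors (GCCNNNGGC), HNF4 factors (CAAAGTCC), C/EBP factors (TTGCNNAA), RUNX factors (TGTGGTT), CTCF (AGGGGGC), ETS factors (CCGGAAG), OTX and related homeobox factors (GGATTA), ZIC factors (CAGCAGG), TCF and LEF factors (CTTTGAT), NFY (CCAATC), nuclear receptor (AGGTCA), ZEB and SNAI E-box (CAGGTG). The SOX letters lie inside the HNF4 letters, and the nuclear receptor letters inside those of ESRRB and NR5A2. With no genome at hand, no motif was searched in regions away from start sites.

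The named genes were the 12 with the most late transient regions, up to 3 per list with at least 2, and 9 fixed genes (1 gene that the rule takes is not reported here), and the named regions the highest-scored ones and the 6 largest runs. The late transient regions, lists and rules were chosen with earlier results of these data known. Analyses used Python 3.11.15, pandas 2.3.3, numpy 2.4.6, scipy 1.17.1 and matplotlib 3.10.9. Alternatives were another overlap, better-scored, equal-length and thinned lists, D10 or D8 peaks as units, other distance limits and each list left out. A wider overlap and 1 start site per region were chosen after seeing the data.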

Additional observations from a re-analysis of the deposited data

How the results depend on the processing

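Depth is a limit: absence from a list can only be read at its background pileup, and the 2 samples of a stage are in 1 list. No paired analysis was possible because each stage has a single list. The cause of the shifts below was not tested, except where an alternative leaves fewer regions by its own construction.

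The number of late transient regions, 7295 as reported, was 4450 with the better-scored 50% of each list, 1960 when all 3 late lists had to cover the region, 3203 without the D8 list and 2245 without the D10 list. It stayed within 1.5 times under the other 12 alternatives, from 5795 without the D12 list to 9523 without the iPSC list. Overlap of at least 50% of the region or of the peak changed nothing, since each peak lies whole in its region, and late peaks over at least 50% of the region left 5811.

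The share near a start site or gene end, 3.56%, was 8.83% with the better-scored 50%, 7.19% with lists of equal length, 5.59% with thinned lists, 3.14% with no peak of another list within 500 bp, 3.06% with all 3 lists, 4.36% without the D2 list, 3.03% without the D8 list, 4.78% without the iPSC list and 6.39% with a 2.5 kb window. It was below that of all regions under each of these.

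The late transient share of the extraembryonic endoderm regions, 16.5% beside 4.60% of all, was 25.7% beside 6.00% with the better-scored 50%, 26.6% beside 8.01% with equal lengths, 22.5% beside 6.86% with thinned lists, 33.6% beside 12.9% with D10 or D8 peaks as units, 7.09% beside 1.23% with all 3 lists, 9.73% beside 2.08% without D8, 8.31% beside 1.48% without D10 and 20.9% beside 6.92% without iPSC. It was the highest of the 17 lists under every alternative run but the last, where it was at rank 2.

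The GATA share of promoters, 26.8% beside 11.2% of all promoters, was 12.7% with the better-scored 50%, 13.0% with equal lengths and 16.7% with thinned lists. It was 35.8% without D8, 33.9% without D10 and 20.4% without iPSC. The median fold at D10, 6.50, stayed within the quartiles of the reported peaks under all 15 alternatives run for it. Motif shares over whole regions against 200 bp were not run.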

Other observations

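The regions with the highest D10 scores were narrow and unlike the rest. The 5 late transient regions with a D10 score above 800 had a median width of 232 bp, while the 961 above 200 had 587 bp. The highest, chr11:30888297-30888520 inside Gpr75, had summit pileups of 240, 249 and 234 fragments at D8, D10 and D12, although the background pileups of these lists differed. The next, chr9:51747578-51747809, 17.5 kb from Arhgap20, had 195, 242 and 172. The third, chr15:81991178-81991412 inside Xrcc6, had 112, 148 and 28, and that at chr6:71719085-71719291 inside Reep1 had 51, 99 and 54. A region on chromosome X at 4899368 to 4899629 had 52 and 69 and no D12 peak. In the sixth, chr5:149915468-149916061, 594 bp wide, they were 59, 96 and 24, and chr11:119159530-119159871 inside Tbc1d16 had 49, 62 and 42. Only 19 regions had a D10 score above 500.

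Late transient regions were spread over all chromosomes, from 3.39% of the regions of chromosome Y (2 of 59) and 3.72% of chromosome 18 to 5.19% of chromosome 14. Ppargc1a, a coactivator gene of mitochondrial biogenesis, had 10 late transient regions of 67, 8 of them inside the gene, of which one covered a start site with folds of 8.25 at D8 and 6.67 at D10. Hmga2, a chromatin protein gene, had 8 of 53, with D10 folds from 4.08 to 9.53. Other long genes with many were Fhit with 9 of 88, Magi2 with 9 of 85, Esrrg with 8 of 48 and Zfhx3 with 8 of 85. These shares were 10.2%, 10.6%, 16.7% and 9.41%, beside 4.60% of all assigned regions. Early transient regions were more numerous at Fhit (11) and Magi2 (15), and fewer at Esrrg (2) and Zfhx3 (4).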
